A study of Gallus gallus with 4 samples.

Results

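Long terminal repeats (LTRs) are the sequences that flank the internal coding part of an endogenous retrovirus, a retroviral genome inherited as part of the host's DNA. An LTR carries the promoter and the polyadenylation signal of the element, and recombination between the LTRs of an element leaves a solitary LTR behind. LTR families are therefore often present in the genome as many copies with no internal part, and an LTR can also start or end host transcripts. In the germ line, PIWI proteins loaded with piRNAs are known to silence such elements. Described here are the chicken LTR families other than ENS, the family whose members encode ERNI. All repeat names were taken that contain LTR, do not end in -int and do not begin with ENS, which gave 45 of the 11336 names in the deposited repeat tables. All 45 had reads in every library, and all 45 passed the low-count filter together with 2758 other names.

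The libraries were made from chick (Gallus gallus) cranial neural folds, the ridges of the head neural plate that give rise to the cranial neural crest. All embryos were incubated at 37 °C and electroporated with a Cas9 plasmid after 18 hours, at Hamburger-Hamilton stage 4 (HH4). They were dissected at HH9-, 14 hours after electroporation, and the labels name no strain. The 2 knockout libraries held pooled right-side tissue that received guides against Chiwi (PIWIL1, a PIWI protein), and the 2 control libraries held pooled left-side tissue that received control guides. Knockout and right side therefore cannot be told apart, electroporation leaves untransfected cells in the fold, and in such bulk tissue fewer expressing cells and less RNA per cell cannot be told apart. Whether each pool was made from its own embryos is not in the labels, so p-values cover only the spread among these libraries, which may be technical. The gene tables, which hold 38783357 to 40352750 reads per library, give identifiers that the reference table did not pair with symbols, so Chiwi itself and the markers of the tissue were not analysed here.

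The 45 LTR names took 53564 and 60663 reads in knockout replicates 1 and 2, against 61395 and 59392 reads in control replicates 1 and 2. These were 1.98% to 2.17% of all reads in the repeat tables. Levels are given as CPM, here reads of a name scaled to 1000000 reads of the same library's gene table. They sum over all copies of a name in the genome and are not corrected for length or copy number, which the tables do not hold. The order of names below is therefore an order of reads, not of transcripts per copy. Reads in a copy that lies inside a host transcript may be part of a count.

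The LTR reads of the neural folds were spread over a few abundant families and a long series of low ones. The highest name, GGLTR5B, held 12.7% of the LTR reads, the first 5 names together held 41.2%, the first 12 held 72.7%, and 25 names were needed to reach 90%. Mean levels over the 4 libraries exceeded 100 CPM for 4 names, lay between 10 and 100 CPM for 26, and were under 10 CPM for 15. The highest mean was 551 times the lowest. The order was nearly the same in every library: rank correlations between libraries over the 45 names were 0.993 to 0.996, a description over names that share each library's depth. It was less firm between neighbours, since only 11 of the 44 adjacent pairs in that order had ranges over the 4 libraries that did not overlap.

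**Figure D1:**
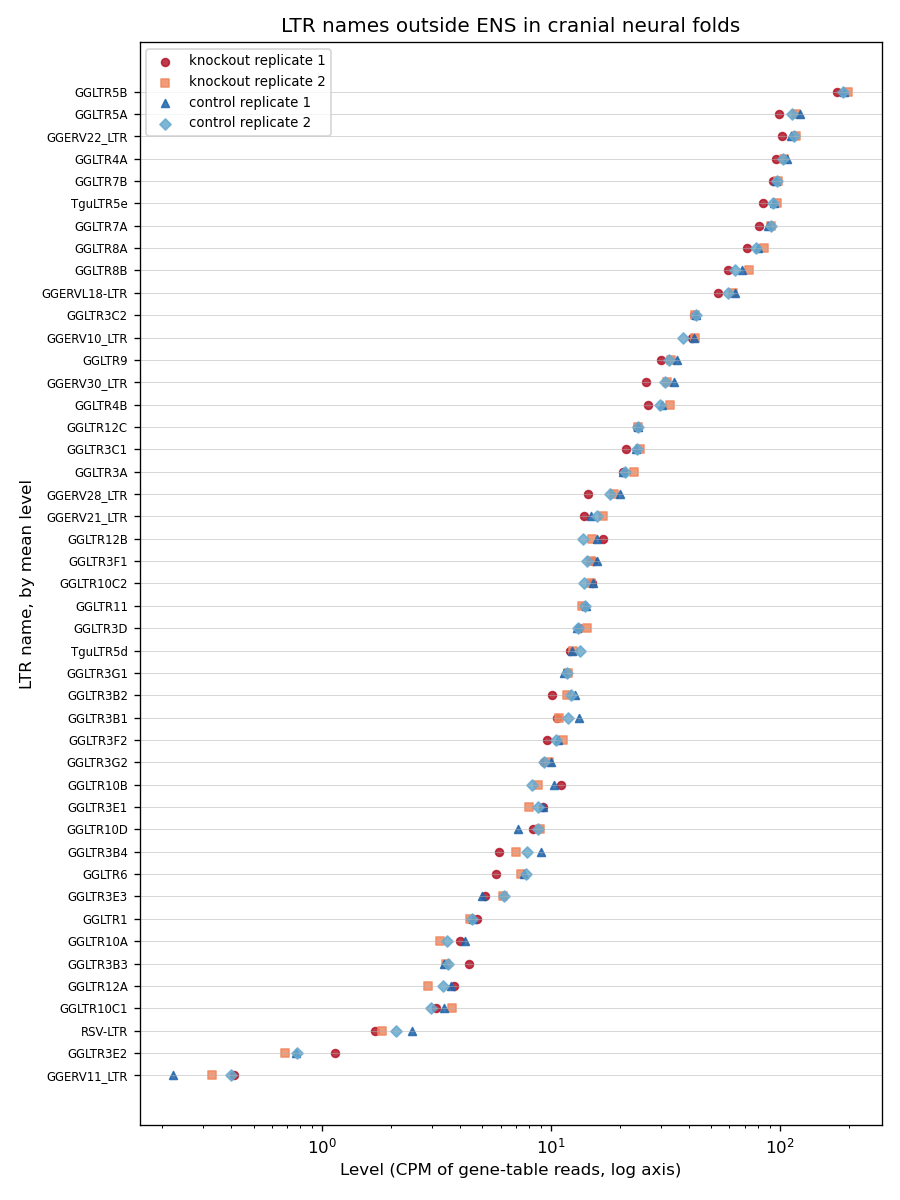
Level of each of the 45 LTR names (CPM of gene-table reads, log axis) in the 2 knockout and the 2 control libraries, 1 symbol per library, names ordered by their mean. The 4 symbols of a name lie close together against the 551-fold span from GGLTR5B to GGERV11_LTR.

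GGLTR5 was the family with the most reads, with 20.3% of the LTR total from its 2 names. GGLTR5B stood at 176 and 198 CPM in knockout replicates 1 and 2, against 189.9 and 187 CPM in control replicates 1 and 2. GGLTR5A stood at 99.2 and 118 CPM in the knockout libraries, against 122 and 112 CPM in the control libraries. The range of GGLTR5B lay clear of that of every other name, while GGLTR5A overlapped the next names in the order. In both names knockout replicate 1 was the lowest library, and the groups overlapped. Log2 fold changes, knockout over control, were -0.010 (SE 0.11) for GGLTR5B and -0.11 (SE 0.11) for GGLTR5A.

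The GGERV names, LTRs labelled by the numbered chicken endogenous retrovirus they belong to, held 18.6% of the LTR reads in 7 names. GGERV22_LTR was at 102 and 117 CPM in the knockout libraries, against 111 and 115 CPM in the control libraries. GGERVL18-LTR, whose name places it with the ERVL class of retrovirus-like elements, was at 53.3 and 62.3 CPM in the knockout libraries, against 63.2 and 59.1 CPM in the control libraries. GGERV10_LTR was at 41.2 and 42.6 CPM in the knockout libraries, against 41.9 and 37.4 CPM in the control libraries. For all 3 names the groups overlapped, and log2 fold changes were -0.044 (SE 0.11), -0.081 (SE 0.12) and 0.078 (SE 0.12). The 7 GGERV names, grouped by prefix and not as 1 family, summed to 271 ± 27.4 CPM in the knockout pools. The sum was 281 ± 6.43 CPM in the control pools (SD, n = 2 each), a ratio of 0.962.

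GGLTR7, GGLTR8 and GGLTR4, with 2 names each, held 12.4%, 9.76% and 8.92% of the LTR reads. GGLTR7B was at 92.9 and 98.1 CPM in the knockout libraries, against 95.7 and 96.9 CPM in the control libraries. GGLTR7A was at 81.1 and 91.1 CPM in the knockout libraries, against 88.4 and 90.7 CPM in the control libraries. Both pairs of knockout values enclosed the control values. GGLTR8A was at 71.4 and 85.1 CPM in the knockout libraries, against 79.6 and 78.3 CPM in the control libraries, and GGLTR8B at 59.2 and 72.9 CPM against 67.8 and 63.7 CPM. GGLTR4A was at 95.6 and 103 CPM in the knockout libraries, against 107 and 102 CPM in the control libraries. Again the knockout libraries lay on both sides of at least 1 control library, and the log2 fold changes of these 5 names ran from -0.072 for GGLTR4A to 0.0070 for GGLTR8B.

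The prefix Tgu, used for repeats of the zebra finch, marks 2 names in the chicken tables. TguLTR5e was among the 12 highest names, at 84.5 and 96.6 CPM in the knockout libraries, against 94.1 and 93.1 CPM in the control libraries (log2 fold change -0.048, SE 0.11). TguLTR5d, outside the rule for named names, was lower, at 12.02 and 12.4 CPM in the knockout libraries, against 12.3 and 13.3 CPM in the control libraries. The groups overlapped for both.

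GGLTR3 had the most names, 15, but held only 13.3% of the LTR reads, and its sum was 195 ± 7.61 CPM in the knockout pools, against 199 ± 2.73 CPM in the control pools (SD, n = 2 each). Its highest name, GGLTR3C2, was at 41.9 and 42.5 CPM in the knockout libraries, against 43.0 and 42.8 CPM in the control libraries. That is a separation of the groups without overlap at a log2 fold change of only -0.023 (SE 0.11). Log2 fold changes were above 0 for 7 of the 15 names and below 0 for 8, with a median of -0.020.

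The single names of the smaller families each stood below about 40 CPM. GGLTR9 was at 30.1 and 33.2 CPM in the knockout libraries, against 35.6 and 32.6 CPM in the control libraries (log2 fold change -0.11, SE 0.12). GGLTR12 and GGLTR10 held 2.87% and 2.68% of the LTR reads. Their highest names were GGLTR12C, at 23.7 and 23.8 CPM in the knockout libraries against 23.9 and 23.9 CPM in the control libraries, and GGLTR10C2, at 15.1 and 14.9 CPM against 15.2 and 13.9 CPM. GGLTR11 was at 13.8 and 13.6 CPM in the knockout libraries, against 14.2 and 14.0 CPM in the control libraries. GGLTR1 was at 4.72 and 4.42 CPM in the knockout libraries, against 4.54 and 4.52 CPM in the control libraries. For GGLTR1 the knockout values enclosed the control values. The lowest names were GGLTR3E2, with 44 and 27 reads in the knockout libraries against 31 and 31 in the control libraries, and GGERV11_LTR, with 16 and 13 reads against 9 and 16, where counting error alone is wide.

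Set against each other, knockout and control tissue did not differ detectably in any LTR name. In the edgeR quasi-likelihood test, adjusted by Benjamini-Hochberg over all 2803 repeat names tested, 0 of the 45 LTR names passed 0.05 (smallest adjusted p = 0.9997), in a comparison in which 0% of repeat names were called. At an unadjusted p under 0.05 there was 1 LTR name, GGLTR3B4, where 1.39% of all repeat names tested reached that level. That share lies under the nominal 0.05, and why was not tested. An absence of calls is in itself no evidence of equal levels. The fitted intervals given below come from the same test. DESeq2 and limma-voom also called 0, with 0 and 1 names at an unadjusted p under 0.05. Log2 fold changes were above 0 for 17 of the 45 names and below 0 for 28, so that 37.8% above 0 stood beside 48.9% of all repeat names tested. The median was -0.020, beside -0.0043 over all repeat names tested, and values ran from -0.38 to 0.25. On the gene-table scale this split rested on knockout replicate 1: without it 24 names were positive and 21 negative, at a median of 0.014. All repeat names tested moved as well without that library, to 55.6% positive and a median of 0.030. Of the 12 highest names, 8 changed sign without that library: GGLTR5B, GGLTR5A, GGERV22_LTR, GGLTR7B, TguLTR5e, GGLTR7A, GGLTR8A and GGERVL18-LTR. Knockout replicate 1 lay above control replicate 1 for 12 of the 45 names (median log2 difference -0.092), and knockout replicate 2 above control replicate 2 for 28 (median 0.025).

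The sum of all 45 names was 1461 ± 112 CPM in the knockout pools, against 1501 ± 28.3 CPM in the control pools (SD, n = 2 each), a ratio of 0.973. Permuting the 4 libraries gave an exact two-sided p of 1, and the smallest that 2 against 2 libraries can give is 0.33. Without knockout replicate 1 the ratio was 1.03. The fitted 95% interval of the fold change lay within a 1.5-fold change in either direction for 40 of the 45 names and within a 2-fold change for 44. The 5 names whose interval passed the 1.5-fold bound, GGLTR3B4, GGLTR3B3, RSV-LTR, GGLTR3E2 and GGERV11_LTR, all stood under 10 CPM. For GGLTR3B4 the interval, from -0.72 to -0.046 in log2, passed it by its shift to the lower side. These intervals borrow the spread of other names and assume that the libraries are independent.

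**Figure D2:**
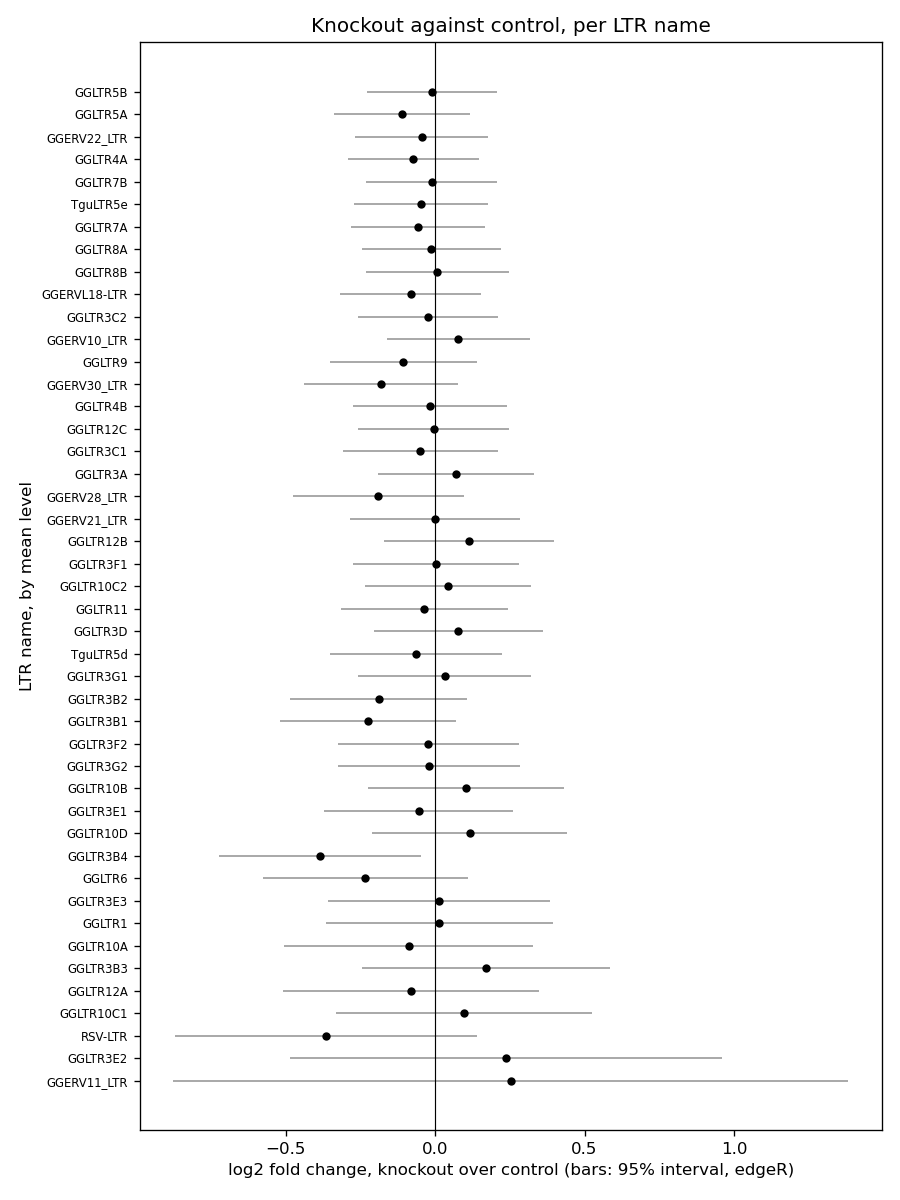
Log2 fold change (knockout over control) of each of the 45 LTR names with its 95% interval from the edgeR fit, names ordered by mean level from the highest at the top. Intervals widen toward the low names, and only that of GGLTR3B4, from -0.72 to -0.046, leaves out 0 before adjustment.

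The names with the smallest p on the lower side were GGLTR3B4, GGLTR3B1, RSV-LTR, GGERV30_LTR and GGLTR6. GGLTR3B4 was at 5.88 and 7.03 CPM in the knockout libraries, against 9.05 and 7.81 CPM in the control libraries. Both knockout libraries lay below both control libraries, at a log2 fold change of -0.38 (SE 0.17, edgeR adjusted p = 0.9997), and leaving out any 1 library gave -0.52 to -0.26. GGLTR3B1 was at 10.6 and 10.8 CPM in the knockout libraries, against 13.2 and 11.8 CPM in the control libraries (log2 fold change -0.22, SE 0.14). GGLTR3B2, outside the rule for named names and added after its values were seen, was at 10.03 and 11.7 CPM against 12.6 and 12.2 CPM. GGLTR3B4, GGLTR3B1 and GGLTR3B2 did not overlap between groups. That was so for 25.8% of all repeat names tested, 12.8% with knockout lower and 12.9% with knockout higher. These GGLTR3B names were picked by small p or after their values were seen, so their lack of overlap is no separate support. The fourth GGLTR3B name, GGLTR3B3, was at 4.36 and 3.45 CPM in the knockout libraries, against 3.40 and 3.54 CPM in the control libraries, so that its groups overlapped and its log2 fold change was 0.17 (SE 0.20).

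RSV-LTR carries the name of the Rous sarcoma virus, the chicken retrovirus in which the Src oncogene was found, and stands for related endogenous copies. It was at 1.70 and 1.83 CPM in the knockout libraries, from 66 and 72 reads, against 2.45 and 2.10 CPM in the control libraries, from 99 and 84 reads. The groups did not overlap, and the log2 fold change was -0.37 (SE 0.25, 95% interval -0.87 to 0.14). GGERV30_LTR was at 26.0 and 31.9 CPM in the knockout libraries, against 34.3 and 31.3 CPM in the control libraries, with overlap (log2 fold change -0.18, SE 0.13). GGLTR6 was at 5.72 and 7.36 CPM in the knockout libraries, against 7.61 and 7.78 CPM in the control libraries, without overlap (log2 fold change -0.23, SE 0.17). For these 2 names the value was -0.039 and -0.064 without knockout replicate 1.

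On the higher side the smallest p belonged to GGLTR3B3, GGLTR12B, GGLTR10D, GGLTR3E2 and GGERV10_LTR. GGLTR12B was at 16.9 and 15.0 CPM in the knockout libraries, against 15.8 and 13.7 CPM in the control libraries (log2 fold change 0.11, SE 0.14). GGLTR10D was at 8.33 and 8.91 CPM in the knockout libraries, against 7.14 and 8.78 CPM in the control libraries (log2 fold change 0.12, SE 0.16). Groups overlapped for all 5 of these names. When 1 library was left out, GGLTR3B3, GGLTR10D, GGLTR3E2 and GGERV10_LTR each changed sign, without knockout replicate 1, control replicate 1, knockout replicate 1 and control replicate 2 in that order.

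Across the 45 names, 9 had no overlap between the groups, which is 20% of them, while 25.8% of all repeat names tested had none. Knockout was lower without overlap in 8 of the 45 names, beside 360 of the 2803 repeat names tested, which is 12.8%. It was higher in 1, GGLTR3D, beside 362 of the repeat names tested, which is 12.9%. Among the 722 repeat names tested that did not overlap, 360 were lower, beside 8 of the 9 LTR names. All names share the same 4 libraries, so these counts are not independent, and a shared drop was not tested. For each of the 8 except GGLTR11 the lowest library was knockout replicate 1, which was the lowest for 26 of all 45 names. GGLTR3D, singled out after its values were seen, was at 13.2 and 14.2 CPM in the knockout libraries, against 13.0 and 13.0 CPM in the control libraries. Among the 8, GGLTR3C2, GGLTR12C and GGLTR11 had log2 fold changes of -0.023, -0.0044 and -0.036, smaller than their standard errors.

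As medians over the names, the pair of libraries within each group lay further apart than the group means, which average out part of that spread. This did not hold for every name, as for the control libraries of GGLTR6. The median absolute log2 fold change of the 45 names was 0.070, while the median absolute difference was 0.20 for knockout replicate 1 against 2 and 0.088 for control replicate 1 against 2. Knockout replicate 1 was the lowest of the 4 libraries for 26 names. Among the 18 names over 20 CPM it was the lowest for 17, the exception being GGERV10_LTR, and it lay below knockout replicate 2 for all 18. The same library was lowest for 33.3% of all repeat names tested, for 30.7% of simple and low-complexity names over 20 CPM, and for 70.6% of the other names over 20 CPM outside the LTR set. Its repeat and gene tables were both the smallest, and its repeat reads came to 6.98% of its gene reads, against 7.47% in knockout replicate 2 and 7.02% and 7.10% in the control libraries. The LTR names took 1.98% of its repeat reads, against 2.06% in knockout replicate 2 and 2.17% and 2.09% in the control libraries, so the LTR share was lowest there on that scale too.

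**Figure D3:**
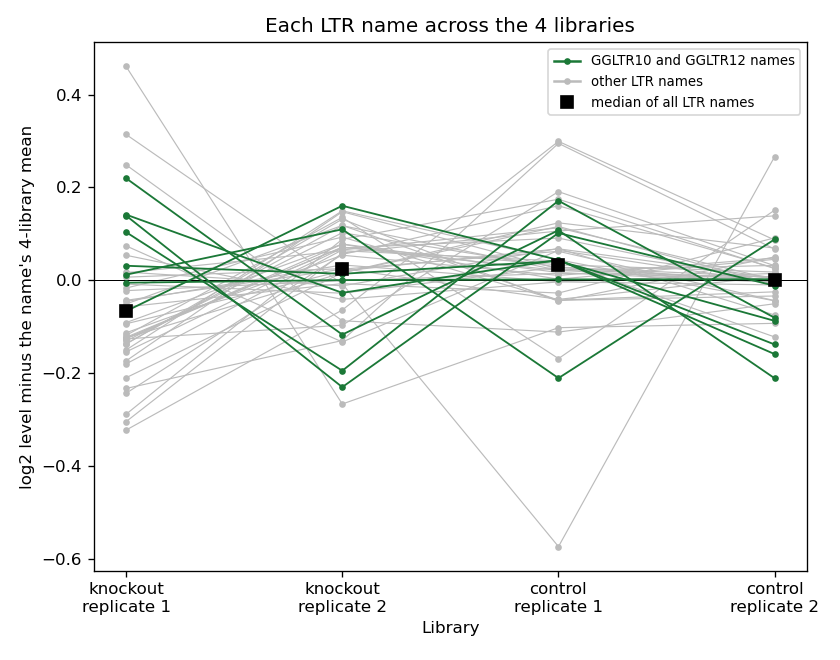
Log2 level of each LTR name minus the name's mean over the 4 libraries, per library, with GGLTR10 and GGLTR12 names in green, other LTR names in grey and the median of the 45 names as black squares. The median was -0.066 in knockout replicate 1 and lay between 0.0013 and 0.034 in the other 3 libraries. The green lines do not share 1 order of the libraries.

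Some lower names ran the other way within the knockout group. For 12 of the 45 names knockout replicate 1 lay above knockout replicate 2, all of them among the 27 names at or under 20 CPM. The same was so for 1124 of the 2803 repeat names tested. For 8 names both replicates numbered 1 lay above both numbered 2: GGLTR1, GGLTR10A, GGLTR10B, GGLTR10C2, GGLTR12A, GGLTR12B, GGLTR3E1 and GGLTR3F1. That is 17.8% of the LTR names, beside 20.1% of all repeat names tested, and the names were listed after their values were seen. The opposite order, both replicates numbered 2 above both numbered 1, held for 10 names, which is 22.2%, beside 19.7% of all repeat names tested. Over all 45 names both shares lay near those of all repeat names. The first order held for 0 of the 18 LTR names over 20 CPM and 8 of the 27 at or under it. The opposite order held for 5 of the 18 and 5 of the 27. GGLTR10B, at 11.1 and 8.76 CPM in the knockout libraries against 10.2 and 8.21 CPM in the control libraries, differed by more between numbers than between groups. So did the family sum of GGLTR12, at 44.3 and 41.7 CPM in the knockout libraries against 43.3 and 40.9 CPM in the control libraries. GGLTR12C, the highest name of that family, did not have this order. It was at 23.7 and 23.8 CPM in the knockout libraries, against 23.9 and 23.9 CPM in the control libraries. The labels do not say what a number stands for.

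For scale, the 2 ENS LTR names together stood at 985 ± 147 CPM in the knockout pools, against 810.0 ± 169 CPM in the control pools (SD, n = 2 each), below the sum of the 45 other LTR names in both groups. The ratio of ENS LTR reads to the other LTR reads was 0.789 and 0.572 in the knockout libraries, against 0.611 and 0.466 in the control libraries. Knockout and control libraries overlapped in this ratio (mean log2 difference 0.33, exact two-sided permutation p = 0.667). Between libraries of the same number it was higher in knockout both times, by 0.37 and 0.29 on the log2 scale, and whether the numbers pair the pools is not known.

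Internal parts with the same stem in their name were listed for 7 of the LTR stems, and those LTRs are set beside them here. The match is by name only, and whether both sets of reads come from the same copies was not tested. The ratio of LTR reads to internal reads, which also depends on the lengths and copy numbers of the 2 parts, was near 1 for GGLTR7, at 0.952 and 1.02 in the knockout libraries against 0.926 and 1.09 in the control libraries. For GGERVL18 it was 0.753 and 0.835 in the knockout libraries, against 0.796 and 0.747 in the control libraries. At the other end, RSV had 0.0195 and 0.0184 LTR reads per internal read in the knockout libraries, against 0.0260 and 0.0207 in the control libraries. GGLTR10D had 0.0745 and 0.0958 in the knockout libraries, against 0.0646 and 0.0890 in the control libraries. GGERV28 had 0.645 and 0.735 in the knockout libraries, against 0.773 and 0.801 in the control libraries. Ratios were lower in knockout without overlap for RSV and GGERV28, and the groups overlapped for the other 5 stems. No such ratio was formed for other repeats, so no share over all features stands beside these 2 of 7.

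Internal levels lay close between the groups as well. RSV-int was at 87.4 and 99.2 CPM in the knockout libraries, against 94.3 and 101 CPM in the control libraries (log2 fold change -0.066, SE 0.11). GGLTR10D-int was at 112 and 93.0 CPM in the knockout libraries, against 110.4 and 98.6 CPM in the control libraries (log2 fold change -0.029, SE 0.11), with the replicates numbered 1 high in both groups, unlike its LTR. GGERVL18-int was at 70.8 and 74.5 CPM in the knockout libraries, against 79.4 and 79.1 CPM in the control libraries (log2 fold change -0.13, SE 0.11). Of the 7 internal names it was the only one without overlap. Among all repeat names tested, 25.8% did not overlap, 12.8% with knockout lower. Of the 7 internal names, 0 passed the edgeR test, in which 0% of repeat names were called, and their log2 fold changes ran from -0.13 to 0.032.

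**Figure D4:**
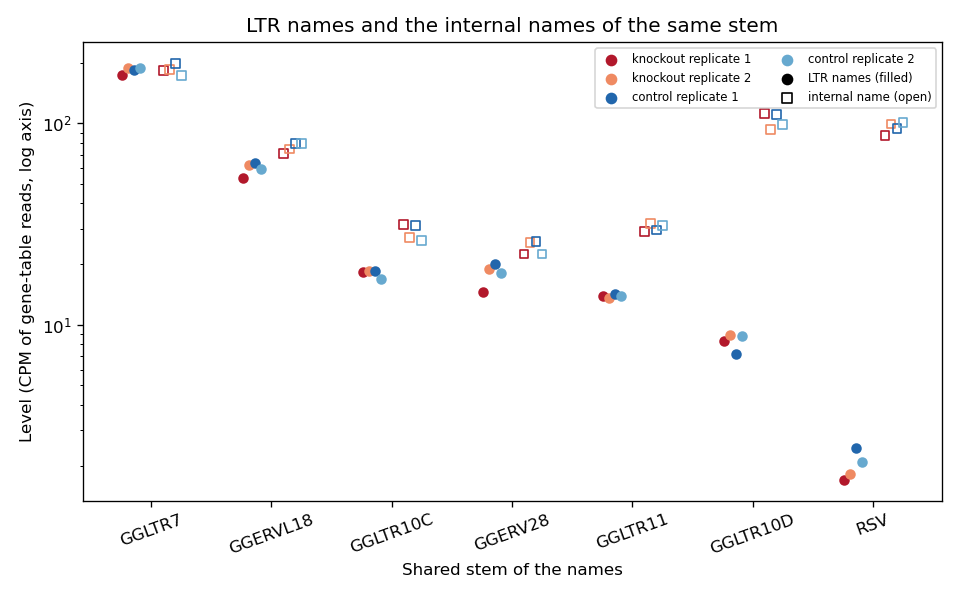
Summed level of the LTR names (filled circles) and level of the internal name (open squares) for each of 7 shared stems, per library, on a log axis in CPM of gene-table reads. The LTR and internal levels are alike for GGLTR7, and the LTR names lie far below the internal name for GGLTR10D and RSV.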

How the data were processed

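Total RNA of 2 knockout and 2 control pools was sequenced. The authors deposited, per library, raw read counts per Ensembl gene ID (24356 IDs) and raw read counts per repeat name. Bowtie2, featureCounts, DESeq2 and the galGal6 build are named in the submitters' processing notes. Not given in the sources used here are versions, strand setting and the treatment of multi-mapping reads and of copies inside genes, so reads of similar families such as GGLTR3B1 to GGLTR3B4 may be split or dropped.

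Counts were tested with edgeR 4.0.16 (R 4.3.3, glmQLFit and glmQLFTest, group as the only term), with the summed reads of the library's gene table as library size and no further factor. The low-count filter was filterByExpr with a minimum count of 10 and a minimum total of 15. P-values were adjusted by Benjamini-Hochberg over all 2803 names kept. SE is the log2 fold change over the square root of F, and intervals are 95% intervals. The code was checked on simulated independent counts with known changes, which tests the code and not how well the model holds for these libraries.

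Names given in the text are the 12 highest by mean level, any past adjusted p 0.05 and the 5 with the smallest p in each direction. Also given are RSV-LTR, the 2 lowest and the highest of each family or name group, plus those marked as added. Members, families and lists were chosen with earlier results of these data known. Alternatives were other scalings, no filter, DESeq2 1.42.0, limma-voom (limma 3.58.1), a replicate block, a threshold of 0.10, and leaving out each library.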

Additional observations from a re-analysis of the deposited data

How the results depend on the processing

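The count of 0 LTR names called was kept under all 13 alternatives. The ratio of summed levels ranged from 0.920 to 1.03 and the median log2 fold change from -0.090 to 0.014 when 1 library was left out, both highest without knockout replicate 1 and lowest without knockout replicate 2. In these fits the lone library of an arm is assumed to vary like the others. With a replicate block, which edgeR fitted with the number as a term, 0 names were called and the median was -0.023. The log2 deviations of same-numbered libraries correlated at -0.071 over the LTR names and 0.162 over all repeat names tested, which with 2 pools per group does not settle whether numbers pair the pools. With the repeat-table total as scale, the median moved to -0.053 and the ratio of sums to 0.950 (exact permutation p = 0.33, the smallest possible), with 0 names called. On that scale GGLTR8B was -0.030 and GGLTR1 was -0.017, both turned. Without simple, low-complexity and ribosomal RNA names in that total, GGLTR12C was 0.0048, also turned. The other 213 of 216 log2 fold changes of named LTRs in alternatives with all libraries kept their sign. When 1 library was left out, 16 of the 27 named LTRs turned at least once. The ranges were -0.097 to 0.072 for GGLTR5B, -0.24 to 0.0072 for GGLTR5A, -0.15 to 0.054 for GGERV22_LTR, -0.052 to 0.027 for GGLTR7B and -0.15 to 0.045 for TguLTR5e. They were -0.14 to 0.025 for GGLTR7A, -0.15 to 0.11 for GGLTR8A, -0.15 to 0.15 for GGLTR8B, -0.20 to 0.026 for GGERVL18-LTR and -0.0014 to 0.16 for GGERV10_LTR. They were -0.019 to 0.11 for GGLTR10C2, -0.026 to 0.27 for GGLTR10D, -0.035 to 0.060 for GGLTR1, -0.0064 to 0.33 for GGLTR3B3, -0.17 to 0.56 for GGLTR3E2 and -0.10 to 0.73 for GGERV11_LTR. The cause was not tested. GGLTR3B4, RSV-LTR, GGLTR3B1, GGERV30_LTR and GGLTR6 kept a negative value in every alternative run. They were picked from these same data by smallest p on the lower side, so a kept sign is no separate support. GGLTR4A, GGLTR9, GGLTR3C2 and GGLTR11 also stayed negative throughout, and GGLTR12B stayed positive. The count of 9 names with no overlap was not repeated without a library, since a lone library makes it a different count. Depth limits the lowest names most: GGERV11_LTR had 9 to 16 reads per library.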
